A study of Sus scrofa domesticus with 36 samples.

Results

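The muscle libraries with the most and the least COL3A1 RNA were compared in young pigs, to describe how other connective tissue genes stood in the same samples. COL3A1 encodes the chain of type III collagen. The 18 longissimus dorsi libraries of the series were ranked by COL3A1 in CPM, the gene's count as a share of all gene counts of the library. The 6 highest (high COL3A1) were set against the 6 lowest (low COL3A1). These 12 libraries are part of 36 in all; the 6 muscle libraries between them were kept as a middle group. The libraries were chosen by COL3A1 itself, so its difference and those of all other muscle genes are given as descriptions with their errors, without tests. The backfat libraries of the same pigs took no part in the choice, and differences there were tested.

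Each pig gave 1 muscle library and 1 subcutaneous backfat library, and pigs are named here as in their labels (Sample_572-L is the muscle library of the pig Sample_572), with the number alone in the plots. All pigs were crosses of the Danbred 600 and Newsham NC32 lines, as the growth protocol names them, and were sampled about 3 weeks after weaning; the labels also give 16 to 17 days of age beside the stage weaning, and the age at sampling is not settled by them. The submitters took 9 pigs from the slowest 10 percent of growers and 9 from percentiles 60 to 70, and matched them into 9 pairs by litter size and by parity of the sow. The class and the pair of each pig were not among the labels used here, so the high and low COL3A1 groups may each mix slow and faster growers, and nothing below compares growth classes. The labels name no treatment. Values are RNA levels of whole tissue; neither collagen protein nor connective tissue area was measured, and more matrix-producing cells cannot be told apart from more RNA per cell.

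Muscle fibres lie in a connective tissue scaffold: endomysium around each fibre, perimysium around bundles and epimysium around the whole muscle. Its fibrils are built mainly from type I and type III collagen, on cores of type V collagen, and are made by fibroblasts and fibro-adipogenic progenitors. Newly made chains are hydroxylated and folded in the endoplasmic reticulum, trimmed outside the cell by proteases such as ADAMTS2 and BMP1, and crosslinked by lysyl oxidases, while small leucine-rich proteoglycans such as decorin and biglycan set how fibrils grow. Type III collagen is typical of young and distensible tissue.

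COL3A1 ranged 4.71-fold over the 18 muscle libraries, from 749 to 3525 CPM of the library total. The low group held 749 (Sample_572), 799 (Sample_735), 977 (Sample_911), 1301 (Sample_176), 1364 (Sample_659) and 1408 CPM (Sample_835). The high group held 1836 (Sample_656), 2138 (Sample_77), 3235 (Sample_391), 3296 (Sample_998), 3496 (Sample_491) and 3525 CPM (Sample_889). The top 4 libraries stood well above the rest, whereas the borders of the groups cut through close values: the first library outside the high group had 1804 CPM (Sample_114), and the first outside the low group had 1410 CPM (Sample_186). After scaling by the trimmed mean of M-values (TMM), which corrects library totals for a few very abundant genes, the group means were 2854 ± 610 CPM and 1033 ± 401 CPM (SD, n = 6 each), a ratio of 2.76. All CPM values from here on are TMM-scaled, and each difference is log2, high minus low, with its standard error (SE).

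**Figure D1:**
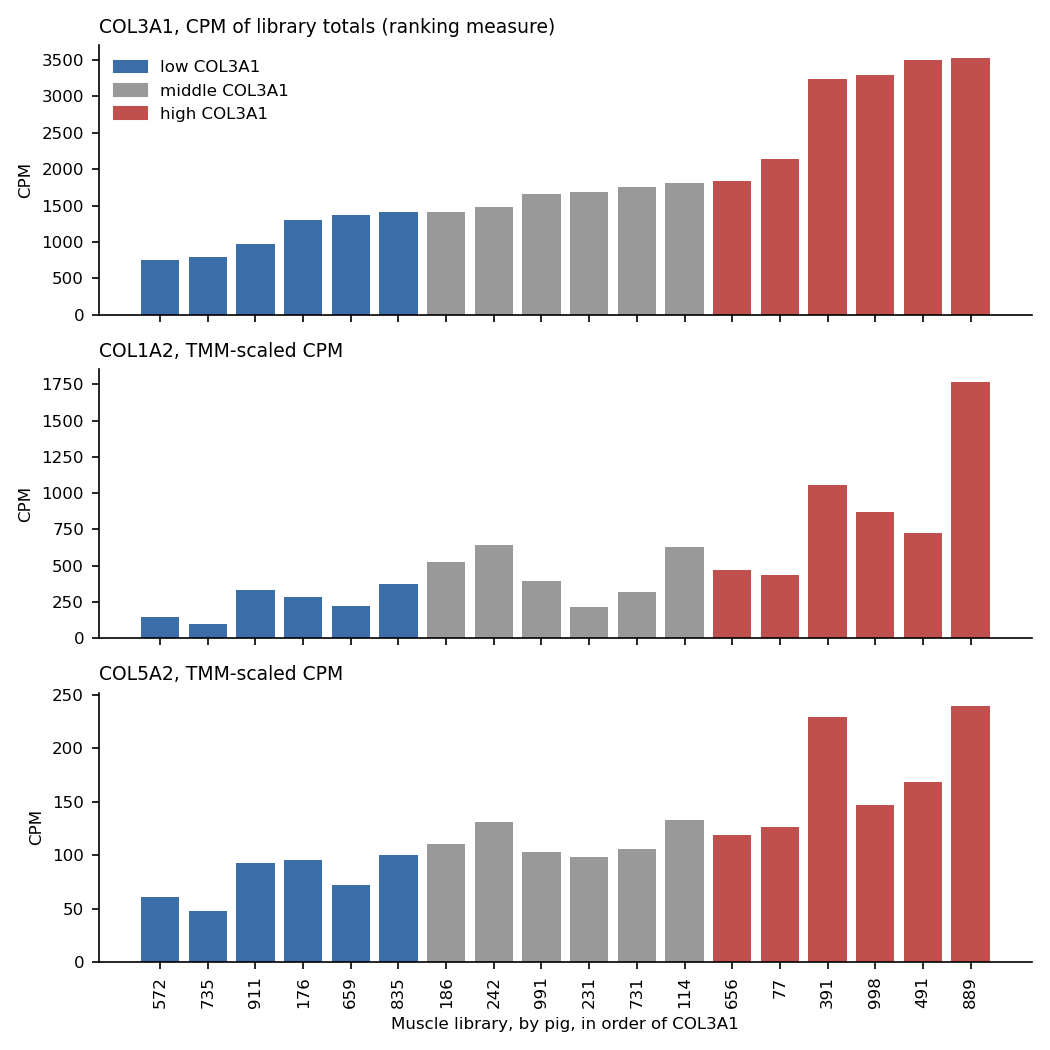
COL3A1 (CPM of the library total, the ranking measure), COL1A2 and COL5A2 (both TMM-scaled CPM) in each of the 18 muscle libraries, ordered along the horizontal axis by COL3A1; each bar is 1 library and colours mark the low, middle and high groups. COL1A2 and COL5A2 were highest in Sample_391 and Sample_889 and lowest in Sample_572 and Sample_735, while Sample_231 in the middle group had 216 CPM of COL1A2 beside 1686 CPM of COL3A1.

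Some libraries stood apart in ways other than collagen. Skeletal actin (ACTA1) reached only 15353 CPM in Sample_572 and 13771 CPM in Sample_735, against 42490 to 191391 CPM in the other 16 muscle libraries, and both belong to the low group. The muscle library of Sample_572 also had the highest share of counts in no annotated gene (34.1%), and the backfat library of Sample_656, a high group pig, had the fewest gene counts of all (2990913) and 53.8% in no gene. Values without these 3 pigs are given beside each gene list or gene described here whose muscle difference then took the other sign, and beside some of the larger other shifts; the part that these differences have in the other results was not tested. Muscle libraries held 4716541 to 6216459 gene counts and backfat libraries 2990913 to 5373406. Mean totals were 5459704 ± 433362 in high and 5009147 ± 224730 in low COL3A1 muscle (SD, n = 6 each); they are given without a test, since the total divides the CPM that ranked the libraries. The share of counts in no gene was 19.0% ± 0.817 in the high group and 22.6% ± 6.10 in the low group (exact two-sided permutation test over 924 arrangements, p = 0.154, adjusted over 2 measures 0.307), and the share that several genes shared was 0.732% ± 0.103 and 0.757% ± 0.0552 (exact permutation p = 0.619, adjusted 0.619), so neither passed.

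A gene is called here higher (or lower) where all 6 high libraries lay above (or below) all 6 low libraries and the difference was at least 0.5 on the log2 scale. Of 9446 muscle genes with enough counts, 41 were called higher, which is 0.434%, and 3 were called lower, which is 0.0318%. Each count of called list members below is to be read beside these shares. The median difference over all 9446 genes was -0.02, and 4380 of them, 46.4%, were above 0. Scaling by library totals alone moved that median to -0.17, and genes or lists within about that distance of 0 then took the other sign, among them the medians of endothelial (-0.11), oxidative phosphorylation (-0.05) and adipocyte genes (-0.03). A symbol was known for 29 of the 41 genes called higher. Of these, 15 were on lists of matrix or matrix-signalling genes and 14 on none of the 33 gene lists examined. Over 8 lists of matrix components and enzymes combined, 95 genes had enough counts. Of these, 13 were called higher and none lower, and 94 had a difference above 0. The median of the 95 was 0.70 (0.68 without Sample_572, Sample_735 and Sample_656, and 0.59 when scaled by library totals alone). COL3A1, which ranked the libraries, is itself counted among the 41, the 15, the 13 and the 95.

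**Figure D2:**
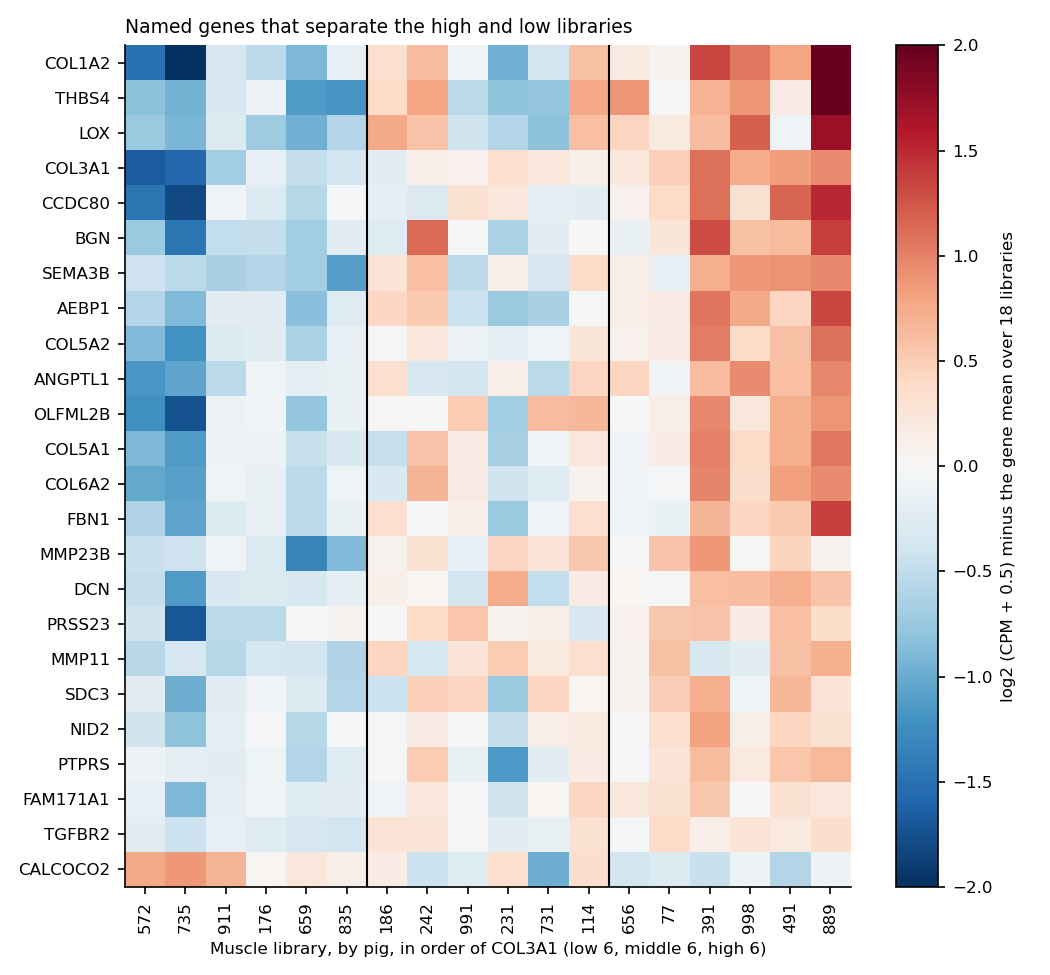
Genes with a symbol and a mean of at least 10 CPM (or on a gene list) that separated the high from the low group, in rows, against the 18 muscle libraries in order of COL3A1, in columns; colour is log2 (CPM + 0.5) minus the gene's mean over the libraries, and the scale stops at 2 in each direction. Vertical lines divide the low, middle and high groups. Most rows run from blue in Sample_572 and Sample_735 to red in Sample_391 and Sample_889, and CALCOCO2 runs the other way.

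Of the fibrillar collagens 6 had enough counts, and 4 of these, COL3A1 among them, were called higher; the other two also had differences above 0 but overlapped between groups, and the list's median was 1.30 (1.12 without the 3 pigs). COL1A2, a chain of type I collagen, had 96.2, 256 and 373 CPM as the lowest, median and highest low library, and 436, 799.5 and 1766 CPM in the high group, a difference of 1.87 (SE 0.37), 3.65-fold. The groups did not overlap, and Sample_889 alone held the top value. COL5A1, which with COL5A2 makes the type V collagen that starts fibrils, had 55.5, 93.9 and 113 CPM in the low group and 116, 181 and 254 CPM in the high group (difference 1.06, SE 0.24). COL5A2 had 47.9, 82.3 and 99.6 CPM against 119, 157 and 239.6 CPM (difference 1.14, SE 0.20). It lies directly next to COL3A1 in the Sscrofa11.1 gene order. COL5A3, the third type V chain, overlapped between groups at 0.61 (SE 0.22). So did COL11A1, a minor fibril chain best known from cartilage, which had the largest difference of the list at 2.32 (SE 0.63) and ran from 2.58 to 12.8 CPM in the low group and from 5.61 to 79.5 CPM in the high group. COL1A1, the other type I chain, has no gene ID with its symbol in the table and was not analysed here.

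Of 8 tested interstitial collagens outside the fibril core, 1 was called higher; all 8 differences were above 0, with a median of 1.04. Type VI collagen forms beaded filaments around cells. Its chain COL6A2 was called, with 88.0, 149 and 179 CPM in the low group and 181, 285 and 370.1 CPM in the high group (difference 0.995, SE 0.24). COL6A1 (1.05, SE 0.25) and COL6A3 (0.87, SE 0.23) were close to that, but 1 or more libraries overlapped: the highest low library had 305 CPM of COL6A3 and the lowest high library 301 CPM. COL12A1, a collagen on fibril surfaces, had 4.09 to 12.7 CPM in the low group and 11.2 to 89.1 CPM in the high group (difference 2.04, SE 0.45), and COL14A1, its relative, differed by 1.03 (SE 0.30). Basement membrane genes, which line each fibre and vessel, had a median of 0.42 over 9 tested and ran from 0.19 to 0.67. Nidogen 2 (NID2), which links laminin to type IV collagen, was the 1 called, with 26.7 to 46.0 CPM in the low group and 46.1 to 82.3 CPM in the high group (difference 0.67, SE 0.16). COL4A2, a type IV collagen chain, differed by 0.61 (SE 0.21) and the laminin chain LAMB2 by 0.19 (SE 0.15).

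Of 19 tested genes for the maturation of collagen, 18 were above 0 (15 when scaled by library totals), 1 was called and the median was 0.48. Lysyl oxidase (LOX), which crosslinks collagen and elastin, had 2.46, 3.00 and 4.23 CPM in the low group and 4.93, 7.86 and 18.5 CPM in the high group, a difference of 1.65 (SE 0.34). No library overlapped, though the counts behind these values are small. Members acting outside the cell ran from 0.10 for the LOX relative LOXL4 (SE 0.31; 0.93 without the 3 pigs) to the value of LOX. Among them ADAMTS2, which removes the N-terminal propeptide, differed by 1.20 (SE 0.27; 7.58 to 23.7 CPM against 22.0 to 61.0 CPM), LOXL1, another relative of LOX, by 1.12 (SE 0.38) and PCOLCE, which speeds removal of the C-terminal propeptide, by 0.86 (SE 0.28). The prolyl and lysyl hydroxylase families of the endoplasmic reticulum ran from -0.06 for P4HA1 (SE 0.17) to 0.66 for P3H3 (SE 0.18), with P4HA2 at 0.32 (SE 0.18) and PLOD1 at 0.26 (SE 0.18), and none was called. MIA3, needed to load bulky procollagen for export, differed by 0.02 (SE 0.12), with 51.1 to 69.3 CPM in every library of both groups.

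Of 11 tested proteoglycans and collagen binders, 2 were called higher; all 11 differences were above 0, with a median of 0.81. Biglycan (BGN) had 19.1, 35.5 and 46.3 CPM in the low group and 49.0, 82.3 and 141 CPM in the high group (difference 1.42, SE 0.30). Decorin (DCN) had 137, 242.3 and 264 CPM against 294, 451 and 495 CPM (difference 0.87, SE 0.21) and did not overlap either. Fibromodulin (FMOD) had the largest positive difference of any gene tested, 2.44 (SE 0.54), with 7.27, 19.4 and 40.2 CPM in the low group and 31.5, 89.7 and 255 CPM in the high group. The groups overlapped all the same, so it was not called. Asporin (ASPN, 1.26, SE 0.27), keratocan (KERA, 1.46, SE 0.43) and lumican (LUM, 0.81, SE 0.27) also overlapped.

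Elastic fibre genes had a median of 0.54, with 13 of 13 tested above 0 (12 when scaled by library totals) and 1 called. This was fibrillin 1 (FBN1), the main microfibril protein, at 16.2, 25.8 and 31.0 CPM against 31.1, 47.3 and 88.4 CPM (difference 0.99, SE 0.24). Elastin (ELN) ran from 17.5 to 54.3 CPM in the low group, its top value in Sample_176 far above a median of 19.97 CPM, and from 34.9 to 69.0 CPM in the high group (difference 1.05, SE 0.29). Matricellular and adhesive glycoproteins had a higher median, 0.97, with 14 of 14 above 0. Thrombospondin 4 (THBS4), abundant in tendon and muscle matrix, was called, with 9.14, 11.3 and 19.5 CPM in the low group and 21.4, 37.1 and 88.7 CPM in the high group (difference 1.68, SE 0.36). Fibronectin (FN1), on which new matrix assembles, missed the call by a narrow overlap between 117 CPM in the lowest high library and 119 CPM in the highest low library (difference 1.37, SE 0.29). SPARC, a collagen-binding protein, differed by 0.62 (SE 0.17), and periostin (POSTN) by 0.97 with a wide error (SE 0.52).

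Of 15 tested matrix proteases and inhibitors, 2 were called higher; all 15 differences were above 0 (14 when scaled by library totals), with a median of 0.71. MMP11 had 5.97 to 7.27 CPM in the low group and 7.39 to 15.5 CPM in the high group (difference 0.79, SE 0.19). MMP23B had 5.96 to 14.8 CPM and 15.7 to 28.8 CPM (difference 0.91, SE 0.20). The gelatinase MMP2 differed by 0.81 (SE 0.19), its activator MMP14 by 0.74 (SE 0.22), and the inhibitor TIMP1 by 0.16 (SE 0.23).

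The next list held genes of TGF-beta and PDGF signalling, which is well known to induce collagen genes. Of 14 tested, 10 were above 0 (7 when scaled by library totals) and the median was 0.16. Only 1 was called higher, beside 0.434% of all genes. The receptor TGFBR2 was called at a modest difference, from 9.09, 10.1 and 10.999 CPM in the low group to 12.2, 14.7 and 16.4 CPM in the high group (0.54, SE 0.13). Among the ligands, TGFB3 had 3.94 to 8.46 CPM against 7.52 to 15.9 CPM (0.93, SE 0.19), while TGFB1 differed by 0.21 (SE 0.20) and TGFB2 by 0.28 (SE 0.31; -0.02 without the 3 pigs). TGFBI, a matrix protein induced by the pathway, differed by 0.98 (SE 0.23), and the signal carriers SMAD3 and SMAD4 by 0.05 (SE 0.21; -0.09 without the 3 pigs) and -0.12 (SE 0.15). Of 14 tested receptors for matrix, 1 was called, 13 were above 0 and the median was 0.58. Syndecan 3 (SDC3) was called (0.79, SE 0.22), the collagen uptake receptor MRC2 differed by 0.996 (SE 0.24), the collagen-binding integrin ITGA2 by 1.07 (SE 0.33) and the common subunit ITGB1 by 0.19 (SE 0.12).

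**Figure D3:**
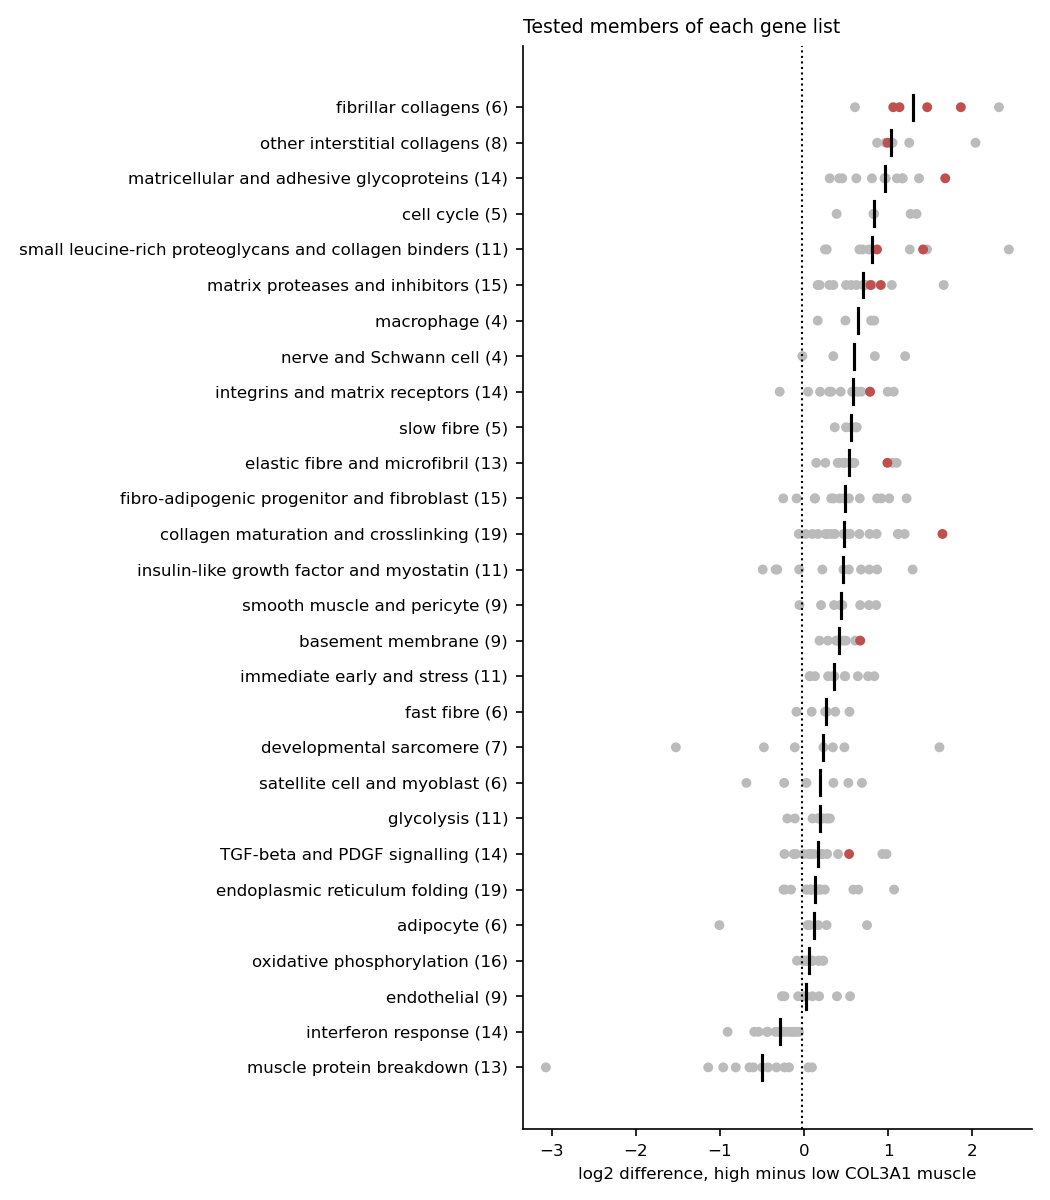
Log2 difference, high minus low COL3A1 muscle, of every tested member (points) of the gene lists with at least 4 tested members; red points are genes called higher, grey points were not called, black bars are list medians and the dotted line is the median of all 9446 genes. Numbers in parentheses are tested members. Medians run from -0.50 for muscle protein breakdown to 1.30 for fibrillar collagens.

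The 14 named genes called higher on no list, chosen after their values were seen where they fell under 10 CPM, included further matrix and secreted proteins. CCDC80, a secreted matrix-binding protein, had 10.3, 27.9 and 36.8 CPM in the low group and 39.4, 64.8 and 108 CPM in the high group (difference 1.43, SE 0.29). AEBP1, a secreted collagen-binding protein needed for sound connective tissue, had 15.3, 21.4 and 24.8 CPM against 31.3, 43.8 and 72.8 CPM (1.21, SE 0.25). The semaphorin SEMA3B differed by 1.33 (SE 0.22), the angiopoietin-like protein ANGPTL1 by 1.13 (SE 0.23), the olfactomedin-like matrix protein OLFML2B by 1.12 (SE 0.29) and the secreted protease PRSS23 by 0.84 (SE 0.22). Smaller differences were found for the receptor phosphatase PTPRS (0.66, SE 0.20) and for FAM171A1 (0.58, SE 0.16). Genes under 10 CPM were PAMR1 (1.40), CD109, a TGF-beta co-receptor (1.33), VASH1, an inhibitor of vessel growth (1.09), SLC22A17 (0.84), the cell cycle kinase WEE1 (0.69) and PKD2, a cation channel (0.52). The other 12 gene IDs called higher have no symbol in the tables used here, and whether some of them are parts of COL1A1, or of 1 gene, was not tested, so the 41 IDs may stand for fewer genes. Among the 12 were ENSSSCG00000017579 (2.00, SE 0.41) and ENSSSCG00000022000 (2.00, SE 0.38), with differences above that of every called gene with a symbol.

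Lower expression was rare. CALCOCO2, a receptor for selective autophagy, had 247.5, 331 and 438 CPM in the low group and 159, 192 and 224 CPM in the high group, 1.72-fold lower (difference -0.79, SE 0.21). The other two, both under 10 CPM on average, were DEDD2, a death effector domain protein (-0.60, SE 0.21), and the zinc finger factor CASZ1 (-0.59, SE 0.18). No member of any of the 33 lists was called lower, beside only 0.0318% of all genes. Without Sample_572, Sample_735 and Sample_656 the CALCOCO2 difference was -0.58 and that of DEDD2 -0.44.

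The genes whose levels were most like COL3A1 over all 18 muscle libraries were matrix genes in the main. By Pearson's r of log2 values, among named genes with a mean of at least 10 CPM, the closest were COL5A2 (r = 0.920, Spearman's rho = 0.872), CCDC80 (0.918 and 0.820), ADAMTS2 (0.904 and 0.763), MRC2 (0.883 and 0.725), SERPINF1 (0.878 and 0.740), GASK1B (0.873 and 0.748), FN1 (0.861 and 0.833), ASPN (0.860 and 0.814), COL6A2 (0.856 and 0.750) and ANGPTL1 (0.853 and 0.806). These were chosen for their r, so no p is given, and all share the same libraries and scaling. Leaving out the 2 libraries farthest from the median of COL3A1 lowered r to 0.874 for COL5A2 and 0.825 for CCDC80. Only 4 of the 10 were also called higher, namely COL5A2, CCDC80, COL6A2 and ANGPTL1. COL1A2 followed less closely, at r = 0.846.

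The 6 middle libraries were in neither group of the contrast, though the same COL3A1 ranking placed them and they entered the fit. Of the 40 genes called higher other than COL3A1, 40 had a middle group mean between the low and high means. So had 3 of 3 called lower and 35.3% of all 9445 other genes. Genes whose outer groups are far apart leave more room for this, and the called genes were chosen for such groups. COL1A2 averaged 244 ± 107 CPM in the low, 455 ± 172 CPM in the middle and 888.995 ± 490.3 CPM in the high group (SD, n = 6 each), and COL5A2 77.9 ± 21.1, 113 ± 14.9 and 171 ± 51.9 CPM. Single middle libraries went against this order. Sample_231 had 216 CPM of COL1A2, below 4 of the 6 low libraries, but 502 CPM of DCN, above every high library. Sample_242 had 644 CPM of COL1A2, above 2 of the high libraries.

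No marker on the fibroblast and tendon lists was called. Over all 9446 genes only 0.434% were called higher, so lists this short would hold few calls or none in any case. COL3A1, COL1A2 and DCN, which were called, stand on the matrix lists instead. For fibro-adipogenic progenitors and fibroblasts, 13 of 15 tested markers were above 0 (12 when scaled by library totals) and the median was 0.48. The summed level of all measured markers ran from 230.8 to 492.6 CPM in the low group and from 330 to 925 CPM in the high group, and thus overlapped. The defining receptor PDGFRA had 5.001, 8.28 and 10.9 CPM against 7.32, 11.3 and 16.5 CPM (difference 0.54, SE 0.24), vimentin (VIM) differed by 0.87 (SE 0.28), the adventitial fibroblast marker PI16 by 1.01 (SE 0.31) and the WNT antagonist SFRP1 by 1.22 (SE 0.29). The tendon markers summed to 69.9 to 216 CPM in the low group and 148 to 322 CPM in the high group, of which the cartilage and tendon protein CILP supplied 68.1 to 211 CPM and 147 to 278 CPM (difference 0.55, SE 0.24; 0.28 without the 3 pigs). Whether more fibroblasts or more tendon tissue in a sample had a part in the matrix differences was not tested.

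Markers of other cell types overlapped between the groups too. Adipocyte markers summed to 309 to 523 CPM in the low group and 323 to 465 CPM in the high group, with a median difference of 0.12 over 6 tested (0.34 without the 3 pigs). Of 9 endothelial markers 5 were above 0 with a median of 0.03 (4 and -0.04 without the 3 pigs), and PECAM1 differed by 0.10 (SE 0.17). Smooth muscle and pericyte markers had a median of 0.44 and a sum of 195 to 518 CPM in the low group and 374 to 673 CPM in the high group; ACTA2, smooth muscle actin, differed by 0.86 (SE 0.28), and 0.58 without the 3 pigs. All 4 tested macrophage markers were above 0 (median 0.65), with sums of 46.1 to 111 CPM and 44.9 to 173 CPM. The nerve list had a median of 0.60 over 4 tested genes, 3 of them above 0, with sums of 44.0 to 98.4 CPM in the low group and 68.3 to 138 CPM in the high group. None of these genes was called, beside 0.434% of all genes called higher and 0.0318% called lower. Of the skin markers, DSG1, DSG3 and KRT15 were listed at 0 in all muscle libraries and KRT1 stayed under 1 CPM, while DSP averaged 70.4, TP63 10.7 and KRT10 3.55 CPM; the list's sum ran from 60.3 to 110 CPM in the low group and from 67.9 to 94.3 CPM in the high group. Of the lymphocyte markers, CD79B and MS4A1 stayed under 1 CPM, while PTPRC averaged 16.8 and CD2 9.01 CPM and CD8A reached 7.09 CPM; that list summed to 19.5 to 64.0 CPM and 8.13 to 74.7 CPM.

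No tested gene of the fast fibre, slow fibre, glycolysis or oxidative phosphorylation lists was called. Over all genes only 0.434% were called higher and 0.0318% lower, so lists of this length would hold few calls or none in any case. Several list medians changed when the 3 pigs that stood apart were left out. Fast fibre genes had a median of 0.26 over 6 tested with all libraries and -0.06 without the 3 pigs, and glycolysis genes 0.19 over 11 tested and -0.22. MYL1, a fast myosin light chain, ran from 5952 to 33419 CPM in the low group and from 13325 to 37135 CPM in the high group (difference 0.37, SE 0.38; -0.12 without the 3 pigs). The 5 slow fibre genes stayed above 0, at a median of 0.56 and of 0.38 without the 3 pigs. The median of their summed level was 7316 CPM in the low, 13642 CPM in the middle and 9936 CPM in the high group. Thus the order of the COL3A1 groups was not kept. MYL3, a slow light chain, had 270.4 to 826 CPM in the low group against 749 to 1350.5 CPM in the high group (difference 0.63, SE 0.26). Oxidative phosphorylation genes had a median of 0.06 over 16 tested, 14 of them above 0; without the 3 pigs it was -0.0042, with 7 above 0.

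The protein breakdown list had the lowest median, -0.50, with 2 of 13 tested genes above 0. None was called, beside 0.434% of all genes called higher and 0.0318% called lower. FBXO32, the ubiquitin ligase atrogin-1, had the largest negative difference of all genes tested, -3.07 (SE 1.01), with a low group median of 10.1 CPM, a top low library of 270 CPM and a high group range of 1.91 to 22.8 CPM. Without Sample_572, Sample_735 and Sample_656 its difference turned to 0.36. The list's median was then -0.10, with 5 genes above 0. Whether the low values of the list rested on those libraries was not tested. FOXO1, a transcription factor that drives such genes, went from -1.14 (SE 0.46) to -0.38. TRIM63, the other muscle ubiquitin ligase, went from -0.60 (SE 0.52) to 0.31.

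**Figure D4:**
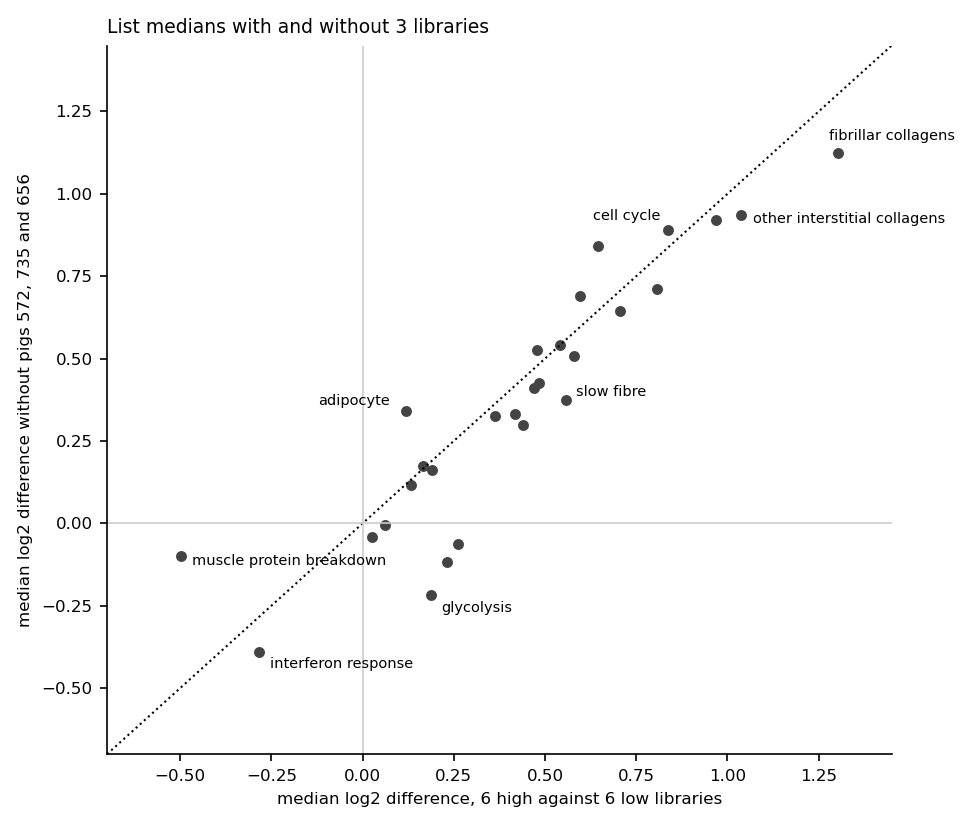
Median log2 difference of each gene list with all 12 libraries of the contrast (horizontal) and without the muscle libraries of Sample_572, Sample_735 and Sample_656 (vertical); each point is 1 list with at least 4 tested members, and the dotted line marks equal values. Fibrillar collagens lie near the line at 1.30 and 1.12, while muscle protein breakdown moved from -0.50 to -0.10 and glycolysis from 0.19 to -0.22.

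Among growth and secretory genes, all 5 tested cell cycle genes were above 0 with a median of 0.84 (0.89 without the 3 pigs), though with wide overlap: MCM2, a replication licensing factor, had 2.12 to 9.31 CPM in the low group and 3.25 to 19.6 CPM in the high group (difference 1.34, SE 0.44), and TOP2A differed by 1.27 (SE 0.62). Chaperones of the endoplasmic reticulum had a median of 0.13 over 19 tested. HSPA5 (BiP) differed by 0.14 (SE 0.25) and calreticulin (CALR) by 0.12 (SE 0.21; 0.014 without the 3 pigs), whereas KDELR3, a retrieval receptor between Golgi and endoplasmic reticulum, had 2.27 to 8.96 CPM against 8.13 to 16.6 CPM (1.07, SE 0.26). In the insulin-like growth factor list, 7 of 11 tested genes were above 0 (median 0.47); the binding protein IGFBP5 differed by 1.29 (SE 0.35) and the ligand IGF1 by 0.78 (SE 0.26), while myostatin (MSTN), which restrains muscle growth, differed by 0.22 (SE 0.57; -0.22 without the 3 pigs). All 14 tested interferon response genes were below 0, with a median of -0.28 (-0.39 without the 3 pigs). None of them was called, beside only 0.0318% of all genes called lower. Early response genes had a median of 0.36 over 11 tested, and FOS ran from 9.26 to 161 CPM within the high group, its top value in Sample_77.

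Which genes were called depended on the scaling and on the choice of libraries. With the same groups scaled by library totals alone, 14 genes were called higher, 12 of them among the 41, and 0 lower. Ranking on COL1A2 instead of COL3A1, an alternative chosen after seeing the data, exchanged 2 pigs in each group and called 94 genes higher and 9 lower; 23 of the 41 genes were shared, and none of the 3. Ranking on TMM-scaled COL3A1 brought Sample_231 into the high group and Sample_186 into the low group, and called 17 genes higher, of which only 3 were among the 41. Without Sample_572, Sample_735 and Sample_656, 117 genes were called higher and 8 lower, with 38 of the 41 and 2 of the 3 shared; 5 high and 4 low libraries separate more easily than 6 and 6. Under that setting 30 of the 95 matrix genes were called higher, none was called lower and 93 were above 0. Sample_656 was left out for its backfat library, and its muscle library had the lowest COL3A1 of the high group. Leaving out Sample_656 alone called 99 genes higher, against 44 without Sample_572 alone and 46 without Sample_735 alone.

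In the backfat of the same pigs, no gene passed the test between pigs with high and low COL3A1 in muscle: 0 of 11832 genes tested (0%) passed an adjusted p of 0.05 in the quasi-likelihood test of edgeR, and 0 passed with DESeq2. At an unadjusted p under 0.05 there were 403 genes with edgeR, 3.41%, and 463 with DESeq2. COL3A1 in backfat had 10517, 12587 and 19290 CPM as lowest, median and highest in pigs with low muscle COL3A1, and 10559, 19125 and 33210 CPM in pigs with high muscle COL3A1. The middle pigs had 17878, 23685 and 30280 CPM, so the order of the muscle groups was not kept. The high against low difference was 0.59 (SE 0.27; unadjusted p = 0.0396, adjusted p = 0.999 by edgeR). COL1A2 differed by 0.79 (SE 0.44), SPARC by 0.63 (SE 0.35) and DCN by 0.19 (SE 0.33), each at an adjusted p of 0.999 by edgeR. Of the 40 genes called higher in muscle other than COL3A1, 35 were above 0 in backfat with a median of 0.31, beside 53.3% of all backfat genes above 0 and a median of 0.01. The fibrillar collagens were above 0 in 9 of 9 tested (median 0.54), the elastic fibre genes in 7 of 14 (median -0.01). Lists outside the matrix were as one-sided in backfat. Cell cycle genes were above 0 in 13 of 13 (median 0.64) and adipocyte genes in 10 of 11 (median 0.32). Interferon response genes were above 0 in 0 of 14 (median -0.31) and endothelial genes in 0 of 9 (median -0.26). The shift was thus not particular to matrix genes.

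Over the 18 pigs, COL3A1 in muscle and in backfat correlated at r = 0.502 (permutation p = 0.0327, adjusted over 6 genes 0.196) and rho = 0.482 (permutation p = 0.0444, adjusted 0.267), with 100000 two-sided permutations. Without the 2 pigs farthest from the median of muscle COL3A1, Sample_572 and Sample_735, r was 0.259. Without Sample_572, Sample_735 and Sample_656 it was 0.287 (permutation p = 0.295). Leaving out the pigs with the lowest muscle COL3A1 also narrows its range, which by itself can lower r. Whether the relation rested on those pigs was not tested. Muscle COL3A1 against other backfat genes gave r = 0.364 for SPARC and 0.332 for COL1A2 (both adjusted permutation p = 0.356), 0.151 for COL6A3 (adjusted 0.828), and 0.0379 for FN1 and -0.0434 for DCN (both adjusted 0.879). None passed after adjustment.

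**Figure D5:**
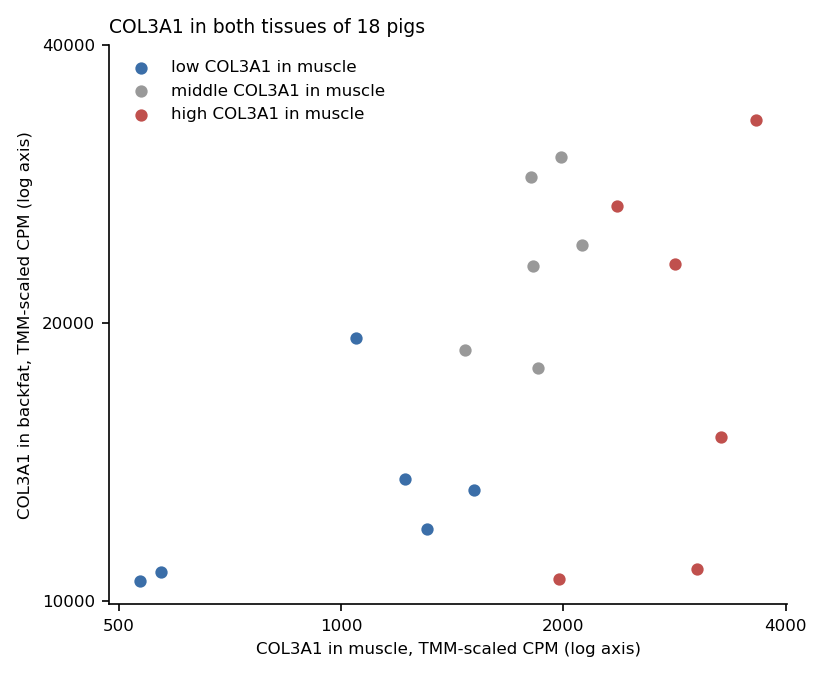
COL3A1 in muscle (horizontal) and in backfat (vertical) of the 18 pigs, TMM-scaled CPM on log axes; each point is 1 pig and colours mark the low, middle and high muscle COL3A1 groups. Sample_572 and Sample_735 lie at the lower left, and the high group spreads from 10559 to 33210 CPM in backfat.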

How the data were processed

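Expected counts without normalisation were deposited by the authors in 1 table for 25322 Ensembl pig genes and 36 libraries (18 pigs, muscle and backfat); the values run in steps of 0.5, with 35.1% not whole. Per the labels' protocols, total RNA was isolated with MagMAX kits, and libraries were made with TruSeq RNA kits and read from both ends on a HiSeq 2000. Per the submitters' processing notes the tools were GSNAP and HTSeq; versions, genome build, annotation and the use of strand are not given in those sources, so reads of overlapping or antisense genes are not separable. The table also has 5 lines without a gene, left out of totals and tests; their shares are given as counts in no gene or in several genes. A symbol was found for 11804 gene IDs. The columns left unused numbered 0, and no batch is named in the labels.

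Muscle libraries were ranked by COL3A1 CPM of the gene counts into 3 groups of 6. Counts were rounded (ties to the even number), filtered with edgeR's default, scaled by TMM (factors 0.794 to 1.40 in muscle) and fitted with edgeR 4.0.16 in R 4.3.3 (robust quasi-likelihood, 18 libraries of a tissue, 3 groups). For the SE, the size of the log2 difference was divided by the root of F. No p is used for muscle genes, except in 1 alternative call rule given as a description; in backfat p was adjusted by Benjamini-Hochberg over 11832 genes. Single values were tested by two-sided permutation with SciPy 1.17.1 (Python 3.11.15, pandas 2.3.3, NumPy 2.4.6); figures used Matplotlib 3.10.9. The smallest p that 6 against 6 can give is 0.0022. The fit was tested on simulated counts by an adjusted p under 0.05, not by the call used for muscle genes. Genes changed by 1 on the log2 scale were recovered at 74% in muscle and 80% in backfat, with 9 and 12 false calls. Genes changed by 2 were recovered at 99% and 95%.

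The gene chosen for ranking, the 33 gene lists and the tests were chosen with earlier results of these data known. Named genes have a symbol and are up to 20 called genes in each direction that average 10 CPM or more, of each list the 4 tested members of highest mean CPM and up to 4 called members, the 10 genes closest to COL3A1, and the backfat genes of the correlation family. Of list members outside that rule, those printed were chosen after their values were seen: COL5A3, COL11A1, COL12A1, P4HA2, P3H3, LOXL1, LOXL4, KERA, TIMP1, TGFB1, TGFB2, TGFB3, ITGA2, PDGFRA, SFRP1, MYL3, FBXO32, FOXO1, TRIM63, KDELR3, IGFBP5, IGF1 and MSTN. Some genes that the rule names are not reported here. Alternatives were other scalings (library totals, DESeq2 1.42.0), filters, call rules, group sizes, ranking measures and leaving out libraries.

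Of the 546 list genes, 144 have no gene ID under their symbol in the table, 99 fell under the filter on low counts and 303 were tested in muscle. The lists not described in the results gave these median differences: hyaluronan 0.19 (2 tested), lymphocyte -0.24 (2 tested), keratinocyte 0.00 (3 tested; 0.31 without the 3 pigs that stood apart), erythroid 0.36 (1 tested), satellite cell and myoblast 0.19 (6 tested) and developmental sarcomere 0.23 (7 tested; -0.12 without the 3 pigs), with no member called. All pigs are separate animals.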

Additional observations from a re-analysis of the deposited data

Results flagged for a closer look

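The cut used here for a library far from the other 5 is passed by about 5% of groups if values are independent and normally distributed. The values were CPM without logs, and some genes were chosen by their calls or after their values were seen. That 5% is therefore not a chance rate for these groups. In 214 groups of 6 libraries, the highest or lowest library stood far from the other 5 in 15, or 7.01%. In high COL3A1 muscle these were the top THBS4 of Sample_889 (88.7 CPM), the top TGFB2 of Sample_391 (25.2 CPM), the top FOS of Sample_77 (161 CPM), the lowest LOXL4 of Sample_656 (3.25 CPM), and in Sample_491 the top P4HA2 (67.2 CPM), the lowest DEDD2 (3.97 CPM) and the highest share of counts shared by several genes (0.938%). In low COL3A1 muscle they were the top ELN of Sample_176 (54.3 CPM), the top DEDD2 of Sample_572 (11.4 CPM), the lowest PTPRS of Sample_659 (8.77 CPM) and, in Sample_735, the lowest FAM171A1 (5.15 CPM) and SLC22A17 (2.73 CPM). In backfat, Sample_391 had the top COL1A2 (36543 CPM) and SPARC (2718 CPM) of the high group, and Sample_911 the top COL3A1 of the low group (19290 CPM).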

How the results depend on the processing

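The counts of called genes moved with most choices, 41 higher and 3 lower being the values reported. Genes called higher numbered 14 with scaling by library totals (0 lower), 17 with ranking on TMM-scaled COL3A1, 137 with 5 against 5 libraries (14 lower), 23 with a minimum log2 difference of 1 (0 lower) and 4 by adjusted p of the quasi-likelihood fit (0 lower), a description since COL3A1 chose the groups. Genes called lower numbered 7 with no filter on low counts, 1 with a filter of 10 CPM and 5 with no minimum difference. Of alternatives chosen after seeing the data, ranking on COL1A2 gave 94 and 9, and leaving out Sample_572, Sample_735 and Sample_656 gave 117 and 8. Leaving out 1 library at a time gave 40 to 99 higher (99 without Sample_656, 68 without Sample_77, Sample_176 or Sample_911) and 3 to 9 lower, with more than 4 lower without Sample_176, Sample_491, Sample_656, Sample_659, Sample_889, Sample_911 or Sample_998; groups with fewer libraries separate more easily by construction. Size factors and fits by DESeq2 gave 39 and 40 higher and 3 lower. Of the called genes other than COL3A1, 33 examined singly, 31 with a symbol and 2 without, kept their sign under the 7 other settings run for single genes. These genes were chosen for groups that did not overlap, and the settings share most of their libraries. A kept sign was therefore nearly set by the choice of genes. List medians changed sign in 15 cases, over 9 lists. The TGF-beta and PDGF median was 0.011 with library totals and 0.00451 with ranking on TMM-scaled COL3A1, and the keratinocyte median 0.31 without the 3 pigs. The correlation with backfat FN1 was -0.13 with library totals, and the difference in the share of counts shared by several genes was 0.00813 with 5 against 5 libraries and 0.014 with ranking on TMM-scaled COL3A1; the cause was not tested. Ranking on COL1A1 was not run, as the table pairs no gene ID with that symbol. No paired analysis was possible because the high and low groups share no pig, and the labels used here do not say which pigs formed each of the 9 matched pairs. Depth limits the genes under about 10 CPM, such as LOX, most.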
